A study of Mus musculus with 16 samples.

Results

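The 7 adrenergic receptor genes Adra1a, Adra1b, Adra1d, Adra2a, Adra2b, Adra2c and Adrb1 were followed through 16 RNA sequencing libraries of mouse brain. They were chosen by symbol, as the rows of the deposited expression tables that carry these names, from 24033 usable gene labels, and all 7 were found in all 16 tables. The libraries came from whole hippocampus and whole striatum of 4 mice at postnatal day 63, numbered 970, 971, 974 and 977. All 4 mice carried 1 copy each of Aldh1l1-creERT2 and of the Ribotag allele, on a background of about 88% C57/Bl6N reached from FVB by 3 generations of backcrossing. The Ribotag allele gives a ribosomal protein a hemagglutinin (HA) tag once Cre recombinase has acted, and the Aldh1l1 driver directs Cre to astrocytes. The creERT2 form of Cre needs a drug that binds its estrogen receptor part, and the dosing is not given in the sources used here. Each mouse gave 4 libraries, the cleared tissue lysate (input) and the RNA brought down with tagged ribosomes by an antibody to HA (IP), from each region, so every group held 4 libraries. Male and female mice were used, and the sex of each mouse is not given in the labels. Mice without Cre and IPs from untagged tissue were not analysed here, so the unspecific part of an IP was not measured on its own.

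Adrenergic receptors are the G protein-coupled receptors for noradrenaline and adrenaline, and in the brain their ligand comes mainly from fibres of the locus coeruleus. The alpha-1 subtypes (Adra1a, Adra1b, Adra1d) act through Gq and phospholipase C, which releases calcium from stores, a response well known in astrocytes. The alpha-2 subtypes (Adra2a, Adra2b, Adra2c) act through Gi and Go, which lower cyclic AMP, and some of them also serve as autoreceptors on noradrenaline neurons. Adrb1 encodes the beta-1 receptor, which acts through Gs and raises cyclic AMP.

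Levels below are FPKM, a fragment density corrected for transcript length and library size, divided by a scaling factor for each library ("scaled FPKM"). Values in the separate libraries follow the order of mice 970, 971, 974 and 977. Depth was estimated from the steps between low FPKM values. It ran from 9010000 to 12220000 fragments for the inputs of hippocampus and from 18870000 to 22590000 for its IPs, and from 4140000 to 8950000 for the inputs of striatum and from 13920000 to 21710000 for its IPs. The striatal inputs of mice 971 and 974 stood apart from the other striatal inputs, with summed FPKM of 222175 and 216381 against 237174 and 240512, and results are also given without them where this matters. All 12 astrocyte markers were higher in IP than in input in both regions, with a median log2 fold change of 4.17 in hippocampus and 3.85 in striatum. Aldh1l1 itself, an enzyme of folate metabolism, went from 4.41 ± 1.28 to 111 ± 11.4 scaled FPKM in hippocampus and from 4.40 ± 1.04 to 104 ± 28.1 in striatum (SD, n = 4). Of 14 pan-neuronal markers, 14 were lower in hippocampal IP and 12 in striatal IP, yet none was at 0: their summed level was 179 to 275 scaled FPKM in hippocampal IP against 3898 to 3993 in input, and 136 to 199 in striatal IP against 1947 to 2720 in input.

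The receptors had a different make-up in the IPs than in whole tissue. In hippocampal input Adra1d held 55.1% ± 2.28 of the summed scaled FPKM of the 7 genes (SD, n = 4), followed by Adrb1 with 20.6% ± 2.83 and Adra2c with 13.5% ± 1.16. In hippocampal IP Adra2a held 37.0% ± 8.35, Adrb1 32.7% ± 6.94 and Adra1a 15.0% ± 2.07, while Adra1d held 9.35% ± 3.57 and Adra2c 4.31% ± 2.44. In striatal input Adra2c held 52.8% ± 3.08 and Adrb1 28.8% ± 2.45. Striatal IP was the most even, with 38.1% ± 9.78 for Adrb1, 21.1% ± 10.9 for Adra2a, 19.3% ± 4.54 for Adra1a and 17.2% ± 8.71 for Adra2c. The 7 genes summed to 22.7 ± 2.43 scaled FPKM in hippocampal input, 13.4 ± 1.83 in hippocampal IP, 14.9 ± 1.83 in striatal input and 8.62 ± 0.534 in striatal IP, so as a family they were low in every group.

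**Figure D1:**
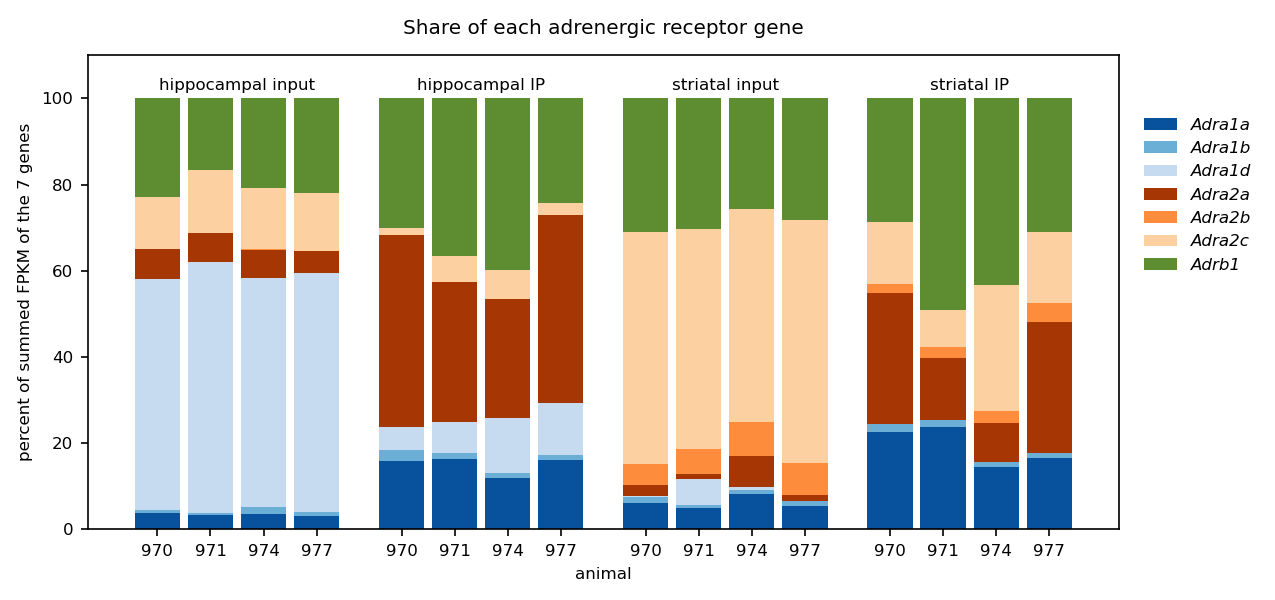
Each bar is 1 library, named by its mouse on the horizontal axis and set in 4 blocks by group; the vertical axis gives each gene's percent of the summed FPKM of the 7 genes. Adra1d fills 53.2% to 58.2% of the hippocampal input bars and none of the striatal IP bars, and Adra2c fills 49.6% to 56.6% of the striatal input bars.

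The order of levels was firm in hippocampal input and loose in the IPs. In hippocampal input the order by mean scaled FPKM was Adra1d, Adrb1, Adra2c, Adra2a, Adra1a, Adra1b, Adra2b, and the 4 values of each gene lay wholly above those of the next. In hippocampal IP the order was Adra2a, Adrb1, Adra1a, Adra1d, Adra2c, Adra1b, Adra2b. There the values of Adra2a and Adrb1 overlapped, Adrb1 was separate from Adra1a, and from Adra1a down to Adra1b each gene overlapped with the next. In striatal input Adra2c was first and Adrb1 second, both separate from the gene that followed, and the order below them (Adra2b, Adra1a, Adra2a, Adra1d, Adra1b) had overlap at every step. In striatal IP the values of Adrb1, Adra2a, Adra1a and Adra2c overlapped with their neighbours, and Adra2b, Adra1b and Adra1d followed as separate steps.

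**Figure D2:**
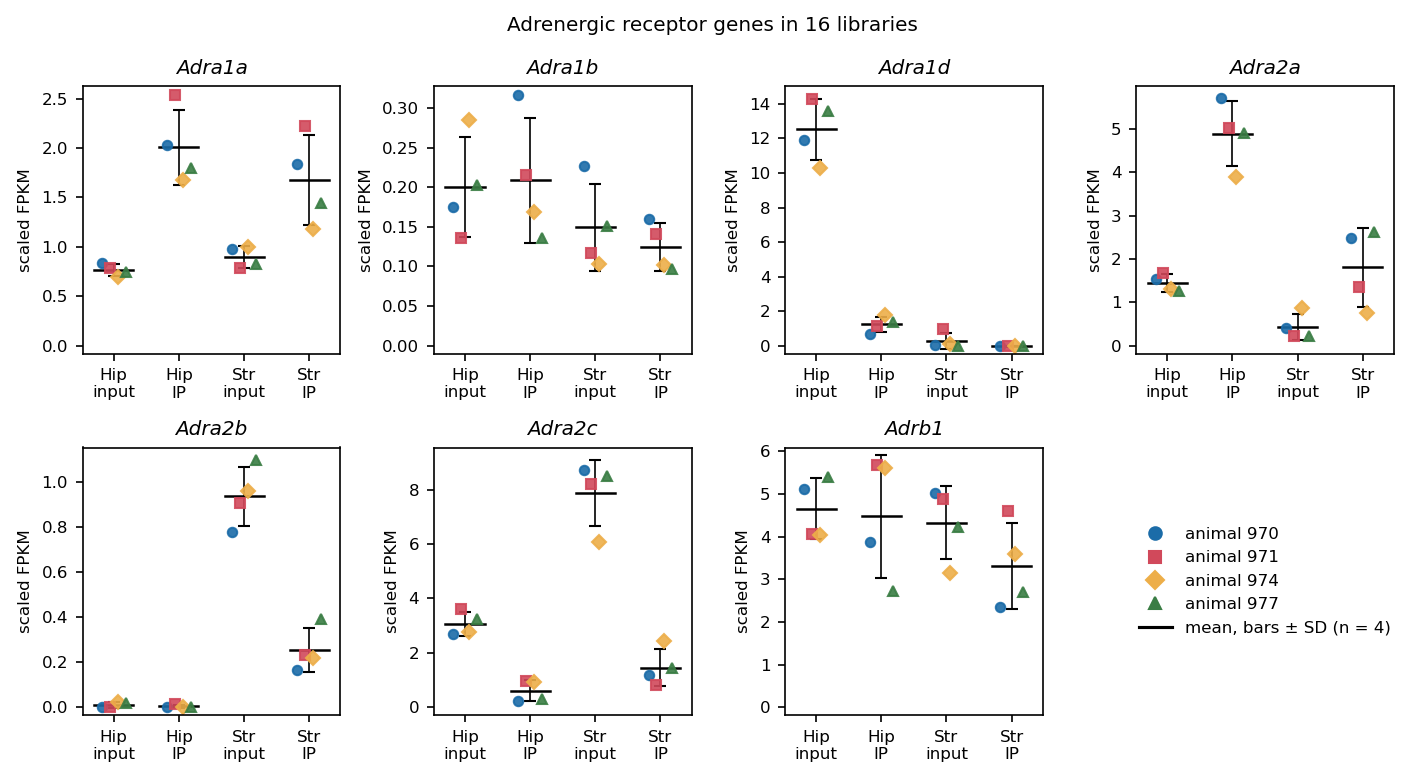
Each panel is 1 gene; the horizontal axis gives the 4 groups, the vertical axis the scaled FPKM from 0 on a scale of its own, points are libraries by mouse, and lines with bars are the mean ± SD of 4 mice. By group means Adra1a and Adra2a stand higher in the IPs than in the inputs of the same region, Adra1d and Adra2c stand lower, and the groups of Adrb1 overlap.

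The comparison of IP with input asks which RNAs the tagged ribosomes of a region held. Fold changes here are log2 differences of scaled FPKM + 1, with standard errors, fitted over all genes with limma and adjusted by the Benjamini-Hochberg method. This scale understates the change of genes under a few FPKM, as these are. Of the 7 receptors, 5 passed a filter of 1 FPKM in at least 4 libraries, and Adra1b and Adra2b did not. In hippocampus, 2 of the 5 rose in IP (Adra1a and Adra2a) and 2 fell (Adra1d and Adra2c), where 65.2% of all 13449 genes passed the test, 31.6% as higher and 33.7% as lower. In striatum, 2 of the 5 rose (the same Adra1a and Adra2a) and 1 fell (Adra2c), where 65.0% of all genes passed, 31.8% as higher and 33.1% as lower. The values of IP and input did not overlap for 4 of the 5 in hippocampus and 2 of the 5 in striatum, against 69.6% and 52.1% of all genes. With 5 genes against shares this high, the counts are not read as a feature of the receptors. The median log2 fold change of the 5 was -0.08 in hippocampus and -0.30 in striatum, against -0.06 and -0.03 over all genes. The filter bears on these counts, since 4 of the 5 entered the fit through groups where they were high. Adra1a reached 1 FPKM in every IP but in 0 hippocampal and 2 striatal inputs. Adra2c reached it in every input but in 0 hippocampal and 2 striatal IPs. Adra1d reached it in all 4 hippocampal inputs, 2 hippocampal IPs, 1 striatal input and 0 striatal IPs. Adra2a reached it in all 4 hippocampal inputs, all 4 hippocampal IPs, 0 striatal inputs and 3 striatal IPs.

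Adra1a, the alpha-1A receptor gene (chr14:66635251-66771168, plus strand, GRCm38/mm10), was higher in the IP of both regions. In hippocampal input it measured 0.832, 0.789, 0.694 and 0.750 scaled FPKM, and in hippocampal IP 2.03, 2.54, 1.67 and 1.79. Every IP value lay above every input value, and the log2 fold change was 0.76 ± 0.13 (adjusted p = 7.0e-05), a ratio of means of 2.62. In striatal input it measured 0.974, 0.789, 1.002 and 0.822 scaled FPKM, and in striatal IP 1.84, 2.22, 1.18 and 1.44. The striatal groups were also separate, with the IP of mouse 974 lowest and that of mouse 971 highest, as in hippocampus. The log2 fold change in striatum was 0.48 ± 0.13 (adjusted p = 0.00386), a ratio of means of 1.87. Between the regions the gene did not pass the test in IP (log2 difference striatum minus hippocampus -0.18, 95% interval -0.45 to 0.10, adjusted p = 0.43) or in input (0.10, interval -0.17 to 0.38, adjusted p = 0.563).

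Adra1b, the alpha-1B receptor gene (chr11:43774606-43901210, minus strand), was low in all 16 libraries. Its highest value was 0.316 scaled FPKM, in the hippocampal IP of mouse 970, and its lowest 0.0963, in the striatal IP of mouse 977. The group means were 0.200 ± 0.0632 scaled FPKM in hippocampal input, 0.209 ± 0.0789 in hippocampal IP, 0.149 ± 0.0551 in striatal input and 0.125 ± 0.0304 in striatal IP (SD, n = 4). All 4 groups overlapped. No comparison passed an exact two-sided permutation test, with p = 0.857 for IP against input in hippocampus, 0.486 in striatum, 0.0857 between the IPs and 0.286 between the inputs, where 4 against 4 libraries can reach 0.0286 at the lowest.

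Adra1d, the alpha-1D receptor gene (chr2:131545850-131562283, minus strand), had the highest level of the receptors in hippocampal whole tissue. In hippocampal input it measured 11.9, 14.3, 10.3 and 13.6 scaled FPKM, the highest levels of any receptor in any group. In hippocampal IP it measured 0.697, 1.12, 1.78 and 1.36. The 2 groups were far apart, and the log2 fold change was -2.61 ± 0.19 (adjusted p = 5.04e-09), with a mean 10.1-fold lower in IP. In each mouse the IP held 5.84%, 7.86%, 17.3% and 9.98% of that mouse's input level. The median of the 14 pan-neuronal markers, computed the same way, was 6.28%, 5.60%, 10.7% and 7.86%, and mouse 974 was the highest for both. The part that remaining neuronal RNA had in the IP level of Adra1d was not tested.

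Striatum held almost no Adra1d. Striatal input measured 0.0513, 0.950, 0.106 and 0 scaled FPKM, and all 4 striatal IPs were listed at 0. These levels stood on an estimated 1, 14, 1 and 0 fragments in striatal input, against 275 to 493 in hippocampal input. The input of mouse 971 was far above the other 3, and it is among the striatal inputs that stood apart. IP against input did not pass the test in striatum (log2 fold change -0.30, adjusted p = 0.194), and without the striatal inputs of mice 971 and 974 the value was -0.04 (adjusted p = 0.867). The kit does not mark strand, and GENCODE places the antisense gene Gm14285 across exons of Adra1d, so reads of the pair cannot be told apart.

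Adra2a, the alpha-2A receptor gene (chr19:54044151-54048982, plus strand), was the leading receptor by mean level in hippocampal IP. In hippocampal input it measured 1.55, 1.68, 1.30 and 1.27 scaled FPKM, and in hippocampal IP 5.71, 5.03, 3.89 and 4.90. The lowest IP value was more than the highest input value, the log2 fold change was 1.26 ± 0.21 (adjusted p = 4.81e-05), and the ratio of means was 3.37. In striatal input it measured 0.420, 0.214, 0.863 and 0.227 scaled FPKM, and in striatal IP 2.49, 1.35, 0.753 and 2.63. Mouse 974 had the highest striatal input and the lowest striatal IP, so the groups overlapped, and the IP was higher in 3 of 4 mice. The log2 fold change in striatum was 0.93 ± 0.21 (adjusted p = 0.000869) and the ratio of means 4.19. Per mouse, striatal IP held 593%, 635%, 87.3% and 1158% of input, a wider spread than the 299% to 387% in hippocampus. The striatal input values rest on an estimated 5 to 13 fragments each. RefSeq lists a start site within this gene with a TATA box that begins at -29 from it, and the surrounding 30 bases (GRCm38.p6, chr19:54045218-54045247, plus strand) are shown because this gene alone of the receptors with an entry held that motif, whose letters TATAAA are in capitals.
Adra2a: tcatcctggggcTATAAAaccagtccagcg
TATAAA, searched on both strands, was found in 12.4% of 32841 windows of the same kind, each the 250 bases before a RefSeq gene start.

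Adra2b, the alpha-2B receptor gene (chr2:127363208-127367221, plus strand), was a gene of the striatum in these libraries. Hippocampal input measured 0, 0, 0.0228 and 0.0168 scaled FPKM and hippocampal IP 0, 0.0148, 0 and 0, which is 0 or 1 estimated fragment per library. Striatal input measured 0.780, 0.907, 0.962 and 1.10 scaled FPKM, and striatal IP 0.167, 0.233, 0.220 and 0.392. The 3 ranges (hippocampus, striatal IP, striatal input) did not touch. Striatal IP was 3.70-fold lower than striatal input by means, with p = 0.0286 in the exact two-sided permutation test, the smallest it can give. A fit without the filter gave a log2 fold change of -0.63 ± 0.06 (adjusted p = 5.07e-07), where 46.4% of 20237 genes passed. In that fit the striatum was above the hippocampus by 0.32 ± 0.06 in IP (adjusted p = 0.00351, 8.44% of genes passed) and by 0.94 ± 0.06 in input (adjusted p = 2.44e-08, 25.4% passed). Per mouse, striatal IP held 21.5%, 25.6%, 22.9% and 35.7% of input, and the median pan-neuronal marker 10.4%, 11.4%, 22.5% and 14.6%. The 250 bases before its RefSeq start (GRCm38.p6, chr2:127362929-127363178, plus strand) are shown because Adra2b was at 0 or 1 estimated fragment in hippocampus and detected in every striatal library. Capitals mark the GC box GGGCGG, here on the opposite strand as CCGCCC, and the CCAAT box CCAAT.
Adra2b: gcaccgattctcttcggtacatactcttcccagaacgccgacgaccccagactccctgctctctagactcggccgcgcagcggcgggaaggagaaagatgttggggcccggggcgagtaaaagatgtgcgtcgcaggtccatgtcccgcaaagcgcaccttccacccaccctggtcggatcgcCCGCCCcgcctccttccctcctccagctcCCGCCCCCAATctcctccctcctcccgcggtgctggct
The GC boxes begin at -67 and -38 from the start, and the CCAAT box at -32 follows the latter directly. GGGCGG was found on either strand in 32.7% of the windows and CCAAT in 33.9%. The sequence has 66.0% G and C and 23 CG pairs, against medians of 52.4% and 6 over all windows.

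Adra2c, the alpha-2C receptor gene (chr5:35278319-35281763, plus strand), was lower in the IP of both regions and higher in striatal than in hippocampal tissue. In hippocampal input it measured 2.68, 3.60, 2.75 and 3.26 scaled FPKM, and in hippocampal IP 0.213, 0.950, 0.932 and 0.320. The log2 fold change was -1.37 ± 0.20 (adjusted p = 1.26e-05), and the mean was 5.09-fold lower in IP. In striatal input it measured 8.72, 8.22, 6.08 and 8.51 scaled FPKM, and in striatal IP 1.18, 0.805, 2.42 and 1.43. There the log2 fold change was -1.88 ± 0.20 (adjusted p = 3.94e-07), and the mean was 5.41-fold lower in IP. IP and input were separate in both regions, and mouse 974 had the lowest striatal input and the highest striatal IP. The IP held 7.94%, 26.4%, 33.9% and 9.80% of input in hippocampus and 13.5%, 9.79%, 39.7% and 16.8% in striatum, beside the pan-neuronal medians given above. Striatal projection neuron markers as a group, of which 11 of 11 fell in striatal IP, held 8.47%, 12.4%, 29.4% and 13.6% by their medians, again with mouse 974 highest. In hippocampus the medians of hippocampal principal neuron markers, of which 9 of 11 fell and 1 rose, were 7.37%, 7.54%, 14.0% and 12.3%. There mouse 971 held 26.4% for Adra2c against 7.54% for these markers. The part of neuronal RNA in the IP level of Adra2c was not tested.

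Adrb1, the beta-1 receptor gene (chr19:56722199-56733113, plus strand), had the smallest relative spread of group means of the 7. Hippocampal input measured 5.11, 4.06, 4.04 and 5.41 scaled FPKM, hippocampal IP 3.87, 5.68, 5.62 and 2.73, striatal input 5.03, 4.89, 3.14 and 4.23, and striatal IP 2.36, 4.59, 3.58 and 2.70. All 4 groups overlapped, and in the IPs of both regions mice 971 and 974 were above mice 970 and 977. IP against input gave a log2 fold change of -0.08 in hippocampus (95% interval -0.51 to 0.35, adjusted p = 0.749) and -0.32 in striatum (interval -0.75 to 0.11, adjusted p = 0.177). Neither passed the test, and the intervals do not show that the levels were the same. The result depended on the scaling: with FPKM as deposited, Adrb1 was lower in IP by -0.58 in hippocampus (adjusted p = 0.0284) and -0.55 in striatum (adjusted p = 0.0389), where the median of all genes moved to -0.51 and -0.25. Against those medians the unscaled values of Adrb1 differ little in hippocampus and by more in striatum. The 250 bases before its RefSeq start (GRCm38.p6, chr19:56721867-56722116, plus strand) are shown beside those of Adra2b because Adrb1, with FPKM scaled and all libraries in the fit, passed no test between groups. Capitals mark the same motifs, both on the opposite strand, where GGGCGG reads CCGCCC and CCAAT reads ATTGG.
Adrb1: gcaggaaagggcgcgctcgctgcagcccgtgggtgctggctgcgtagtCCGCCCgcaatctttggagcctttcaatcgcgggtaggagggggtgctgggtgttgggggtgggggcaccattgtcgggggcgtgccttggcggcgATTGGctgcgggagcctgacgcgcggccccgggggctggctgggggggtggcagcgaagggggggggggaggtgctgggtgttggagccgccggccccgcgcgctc
The GC box begins at -202 and the CCAAT box at -106 from the start, and the sequence has 74.0% G and C and 24 CG pairs. Of the 7 receptors, 5 had an entry among the RefSeq promoters, with 6 windows in all. The cyclic AMP response element core TGACGT, found in 6.47% of all windows, was in none of the 6, and the E-box CACGTG, found in 6.02%, was in those of Adra2a and Adra2c.

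**Figure D3:**
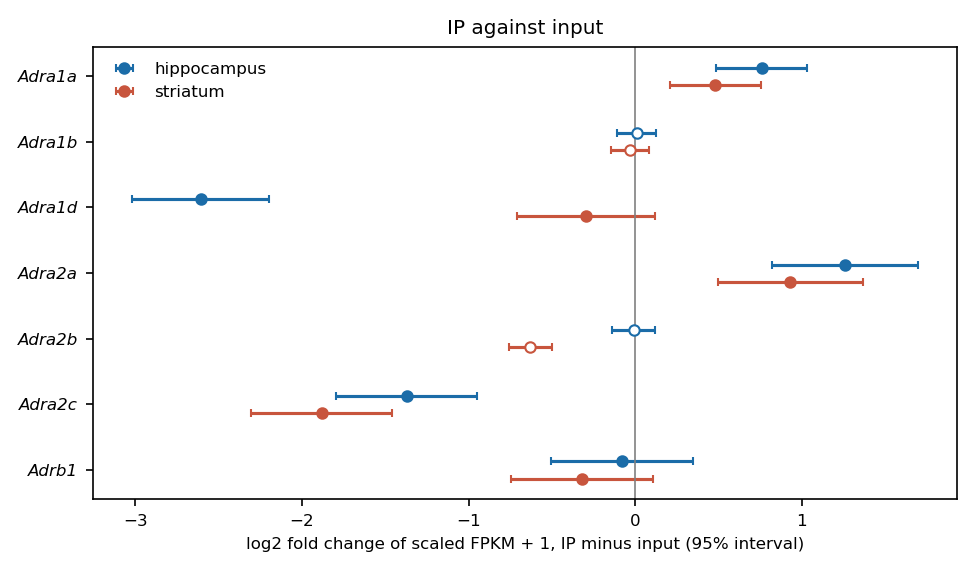
The horizontal axis gives the log2 fold change of scaled FPKM + 1, IP minus input, with 95% intervals from 4 mice per group; rows are the 7 genes, colours the 2 regions, and open points mark Adra1b and Adra2b, taken from the fit without the filter. Adra1a and Adra2a lie right of 0 in both regions, Adra2c lies left in both, and Adra1d lies at -2.61 in hippocampus.

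**Figure D4:**
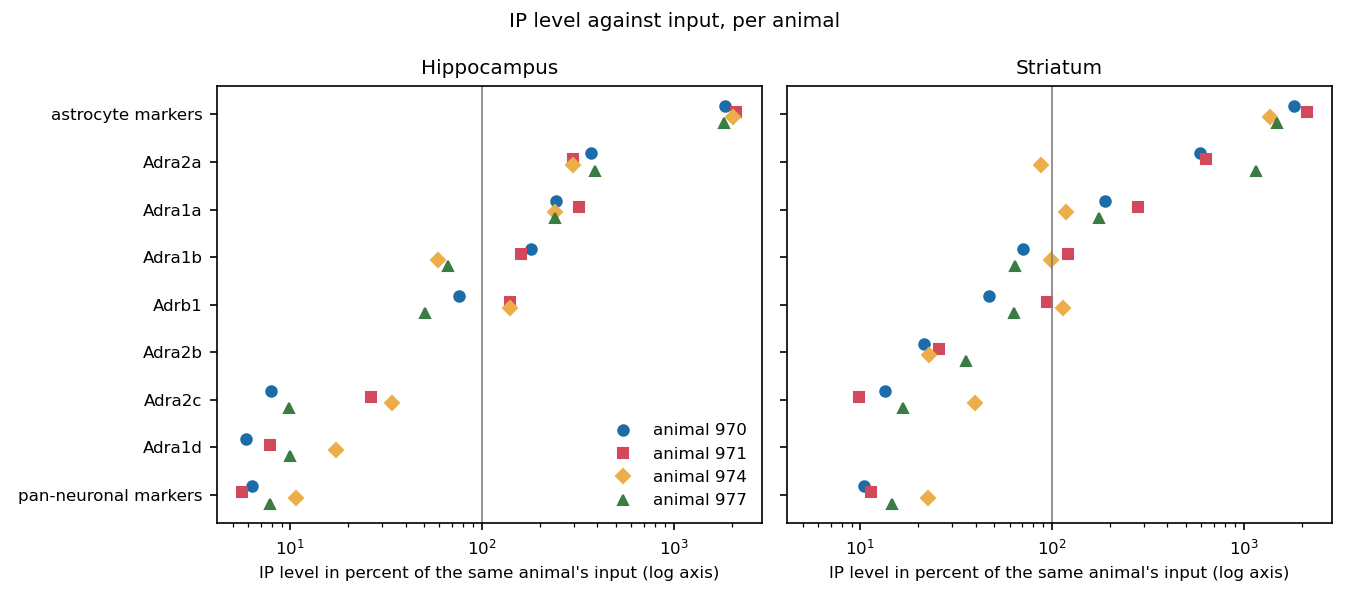
Each point is 1 mouse; the horizontal log axis gives the IP level in percent of the same mouse's input, the line marks 100%, and rows are the receptors with the medians of the astrocyte and pan-neuronal markers. Points at 0 or with no input are not drawn (Adra2b in hippocampus, Adra1d in striatum). The astrocyte markers lie at 1363% or above in both regions, and no receptor in hippocampus exceeds 387%.

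The IP level of Adra1a and of Adra2a, in percent of input, was below that of the median astrocyte marker in each mouse and region. The median astrocyte marker stood at 1817% to 2106% of input in hippocampus and 1363% to 2142% in striatum, while Adra1a stood at 239% to 322% and 118% to 282%. The hippocampal range of Adra2a was given above, and its highest striatal value, 1158% in mouse 977, was below the 1493% of the astrocyte median in that mouse. In bulk samples fewer cells of a type and less RNA per cell cannot be told apart.

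Between the regions, hippocampal tissue held more Adra1d and Adra2a, and striatal tissue more Adra2c and Adra2b. Of the 5 receptors in the fit, 1 was higher in striatal than in hippocampal input and 2 were lower, where 35.4% of all genes passed the test, 17.0% as higher and 18.4% as lower. Values of the regions did not overlap for 3 of the 5, against 33.1% of all genes. Adra1d was lower by 3.45 ± 0.19 (log2 difference -3.45, adjusted p = 1.18e-09). Of its 7 libraries at 1 FPKM or more, 6 were hippocampal, so it entered the fit through the region where it was high. Adra2a was lower as well (-0.79 ± 0.21, adjusted p = 0.00719), with a mean 3.36-fold lower and separate values. It reached 1 FPKM in all 4 hippocampal inputs and 0 striatal inputs, so the filter bears on this difference too. Without mouse 971 the value for Adra2a was -0.68 and no longer passed (adjusted p = 0.0943). Adra2c was higher (1.12 ± 0.20, adjusted p = 0.000361), with a mean 2.56-fold higher and separate values. Adrb1 differed by -0.09 (95% interval -0.52 to 0.33, adjusted p = 0.740). Between the inputs, striatal projection neuron markers were higher in striatum for 11 of 11 and oligodendrocyte markers for 8 of 10. Hippocampal principal neuron markers were lower for 9 of 11, pan-neuronal markers for 8 of 14 and astrocyte markers for 2 of 12. The part of these in the receptor differences between inputs was not tested.

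The region difference passed in IP and in input, in the same direction, for Adra1d, Adra2a and, without the filter, Adra2b. Adra1b, Adra2c and Adrb1 also kept direction but did not pass in IP, and Adra1a changed direction. Between the IPs, 0 of the 5 receptors passed as higher in striatum and 2 as lower, where 12.7% of all genes passed the test, 6.64% as higher and 6.03% as lower. The same 2 had values that did not overlap, which held for 19.9% of all genes. Adra2a was lower in striatal IP by a log2 difference of -1.12 ± 0.21 (adjusted p = 0.00137), 2.70-fold by means, and all 4 striatal values were under all 4 hippocampal values. Adra1d was lower by -1.14 ± 0.19 (adjusted p = 0.000701), with all 4 striatal IPs listed at 0, so no fold is given. Adra2c did not pass (0.61 ± 0.20, 95% interval 0.19 to 1.03, adjusted p = 0.0557), with a higher level in striatum in 3 of 4 mice. That call was at the edge: it passed with a pseudocount of 0.1 (1.24, adjusted p = 0.0351), without mouse 971 (0.85, adjusted p = 0.0375) and without the striatal inputs of mice 971 and 974 (0.61, adjusted p = 0.0411). Adrb1 gave -0.33 (interval -0.76 to 0.09, adjusted p = 0.331). Adrb1, Adra1a and Adra1b were each higher in striatal than in hippocampal IP in 0 of 4 mice, though none of them passed. The share of all genes with this pattern was not counted, so it is not read as a feature of the receptors. Without scaling, the median log2 difference of all genes between the IPs moved from -0.05 to 0.11. Hippocampal principal neuron markers were lower in striatal IP for 7 of 11, and striatal projection neuron markers were higher for 10 of 11. Astrocyte markers were lower in striatal IP for 5 of 12 and higher for 0, with a median of -0.41. Among the 5 lower ones, Gfap, an intermediate filament gene, differed by -2.54 and Gjb6, a gap junction gene, by -0.87, beside -1.12 for Adra2a. The other 7 did not pass, and Aldh1l1 was among these (-0.14, adjusted p = 0.722). Oligodendrocyte markers were higher in striatal IP for 6 of 10 (median 0.82), and precursor markers were lower for 3 of 5. The part of these in the receptor differences was not tested.

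**Figure D5:**
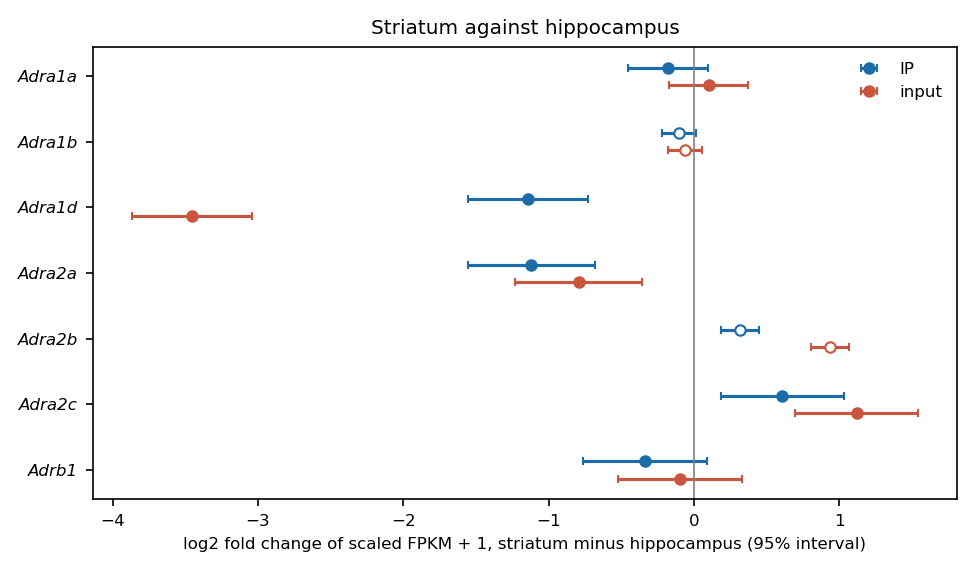
The horizontal axis gives the log2 difference of scaled FPKM + 1, striatum minus hippocampus, with 95% intervals from 4 mice per group; rows are the 7 genes, colours IP and input, and open points come from the fit without the filter. The interval of Adra2a lies left of 0 and that of Adra2b right of 0 in IP and in input, and the intervals of Adrb1 cross 0 in both.

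A last test asked whether the region difference in IP departed from that in input. Of the 5 receptors, 1 passed, with a positive difference, where 13.8% of all genes passed, 6.68% as positive and 7.17% as negative. For Adra1d the region difference was smaller in IP than in input by 2.31 ± 0.28 on the log2 scale (adjusted p = 3.17e-05). With a pseudocount of 0.1 this was 2.04 and did not pass (adjusted p = 0.0976). Adra2b gave -0.62 ± 0.09 in the fit without the filter (adjusted p = 0.000289, 9.33% of genes passed). In both cases 1 region was at or near 0, Adra1d in striatum and Adra2b in hippocampus. These values therefore largely repeat the change of IP against input in the other region, which was -2.61 for Adra1d and -0.63 for Adra2b. The intervals of the others contained 0: Adra1a -0.28 (-0.67 to 0.11), Adra2a -0.33 (-0.95 to 0.29), Adra2c -0.51 (-1.11 to 0.08) and Adrb1 -0.24 (-0.84 to 0.36).

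Counts of pathway genes called in IP against input are to be read against all genes, of which 31.6% passed as higher and 33.7% as lower in hippocampus, and 31.8% and 33.1% in striatum. Of the genes that make the ligand, Th and Dbh were near 0 in hippocampus. Th, the first enzyme of catecholamine synthesis, measured 0.0843 ± 0.0636 scaled FPKM in hippocampal input and 0 in all hippocampal IPs, and 1.71 ± 0.408 in striatal input against 0.270 ± 0.247 in striatal IP (log2 fold change -1.10 ± 0.14, adjusted p = 4.27e-06). Dbh, which turns dopamine into noradrenaline, had group means of 0.00630 to 0.0963 scaled FPKM and did not pass the filter. Of the 5 genes of noradrenaline synthesis and storage, 2 were tested, 0 passed in hippocampus and 2 fell in striatal IP, where 33.1% of all genes fell. Th entered the fit through striatal input, the group where it was high, so the filter bears on its fall and on this count. Slc6a2, the noradrenaline transporter of noradrenaline neurons, was listed at 0 in all inputs and hippocampal IPs and had a mean of 0.00275 in striatal IP.

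Of 9 genes of noradrenaline uptake and breakdown, 7 were tested, and in each region 5 rose, 1 fell and 1 did not pass, where 31.6% of all genes rose in hippocampus and 31.8% in striatum. The median log2 fold change of the 7 was 1.99 in hippocampus and 1.96 in striatum, against -0.06 and -0.03 over all genes. Maob, a monoamine oxidase of the outer mitochondrial membrane, went from 4.72 ± 0.733 to 89.9 ± 11.03 scaled FPKM in hippocampus (log2 fold change 3.99 ± 0.19, adjusted p = 3.63e-11) and from 6.15 ± 1.77 to 64.3 ± 16.5 in striatum (3.19 ± 0.19). Maoa, its relative with a preference for noradrenaline and serotonin, rose by 1.98 ± 0.14 and 1.96 ± 0.14. Slc22a3, a low-affinity organic cation transporter, went the other way in striatum, from 2.88 ± 0.941 in input to 0.699 ± 0.400 in IP (-1.19 ± 0.18, adjusted p = 1.88e-05). In hippocampus Slc22a3 was at 0.0867 ± 0.0543 scaled FPKM in input and 0.00838 ± 0.0168 in IP. It therefore entered the fit through striatal libraries, where its input was the higher, and the filter bears on its fall too.

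In the Gq and G11 branch, which serves the alpha-1 receptors, isoforms moved in opposite directions. Of 14 genes 11 were tested, with 4 higher and 5 lower in hippocampal IP and 4 higher and 6 lower in striatal IP. The share that rose was near that of all genes (31.6% and 31.8%), and the medians were -0.26 and -1.29. Plcb3, a phospholipase C isoform, rose by 3.07 ± 0.15 in hippocampus and 2.91 ± 0.15 in striatum. Itpr2, a calcium release channel of the endoplasmic reticulum, rose by 2.82 ± 0.15 and 2.43 ± 0.15, while its relative Itpr1 fell (-2.45 ± 0.20 and -2.40 ± 0.20, adjusted p at most 2.01e-08 for these 6 values). Plcb4 fell (-0.47 ± 0.18, adjusted p = 0.0293, and -1.29 ± 0.18, adjusted p = 9.72e-06), the first not without mouse 970 (-0.46, adjusted p = 0.0886) or 971 (-0.41, adjusted p = 0.142). Plcb1 was higher in IP in hippocampus (0.77 ± 0.26, adjusted p = 0.0158) and lower in striatum (-1.37 ± 0.26, adjusted p = 0.000211), and that difference between regions passed its own test (-2.13 ± 0.37, adjusted p = 0.00082). The hippocampal value of Plcb1 did not pass without scaling (0.17, adjusted p = 0.445), without mouse 970 (0.71, adjusted p = 0.0704) or without mouse 971 (0.70, adjusted p = 0.104). Its striatal input was uneven, with a mean of 51.5 ± 30.2 scaled FPKM. Gnaq, the Gq alpha subunit, did not pass in hippocampus (-0.26, adjusted p = 0.129) or in striatum (0.13, adjusted p = 0.455). Without scaling these were -0.86 (adjusted p = 1.45e-07) and -0.16 (adjusted p = 0.102), and without the striatal inputs of mice 971 and 974 the latter was 0.35 (adjusted p = 0.0454). Gna11 gave 0.05 (adjusted p = 0.892) and 0.68 ± 0.28 (adjusted p = 0.0440). The latter was 0.0037 without the striatal inputs of mice 971 and 974 (adjusted p = 0.988), 0.40 without scaling (adjusted p = 0.296), 0.47 without mouse 971 (adjusted p = 0.287), 0.52 without mouse 974 (adjusted p = 0.0667) and 0.80 without mouse 970 (adjusted p = 0.0580).

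In the Gi and Go branch, which serves the alpha-2 receptors, all 13 genes were tested. In hippocampal IP 4 rose and 8 fell, and in striatal IP 4 rose and 9 fell. The share that rose was near that of all genes (31.6% and 31.8%), while 33.7% and 33.1% of all genes fell, and the medians were -1.58 and -1.10. Gnai2, a Gi alpha subunit, went from 32.4 ± 3.42 to 231 ± 6.28 scaled FPKM in hippocampus (log2 fold change 2.80 ± 0.22, adjusted p = 1.02e-08) and rose by 3.11 ± 0.22 in striatum. Gnao1, the Go alpha subunit, rose by 1.41 ± 0.18 in hippocampus (adjusted p = 3.63e-06) and 0.81 ± 0.18 in striatum (adjusted p = 0.00102). Rgs4, which speeds the shut-off of G proteins, had the smallest p of the list in striatum and fell by 4.43 ± 0.21 there.

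Of the Gs and cyclic AMP branch, which serves Adrb1, 21 of 23 genes were tested, with 5 higher and 12 lower in hippocampal IP and 6 higher and 13 lower in striatal IP. Of all genes 31.6% and 31.8% were higher and 33.7% and 33.1% lower, and the medians of the list were -0.67 and -0.77. Gnas, the Gs alpha subunit, did not pass in hippocampus (0.25, adjusted p = 0.143, but -0.35 without scaling, adjusted p = 0.0202) and rose in striatum (1.42 ± 0.15, adjusted p = 3.43e-07). Rapgef3, an exchange factor that cyclic AMP opens, rose by 2.32 ± 0.13 and 2.11 ± 0.13. Adcy8, a calcium-stimulated adenylyl cyclase, rose by 0.88 ± 0.17 (adjusted p = 0.000234) and 0.62 ± 0.17 (adjusted p = 0.00428), the latter not without mouse 970 (0.47, adjusted p = 0.0526). Adcy8 was also lower in striatal than in hippocampal IP (-1.03 ± 0.17, adjusted p = 0.00047). Adcy5 and the phosphodiesterase gene Pde10a, both abundant in striatal neurons, fell in IP, with -2.27 ± 0.25 and -1.29 ± 0.19 in hippocampus and -1.93 ± 0.25 and -2.28 ± 0.19 in striatum.

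Among 6 tested genes of receptor desensitization, 1 rose and 4 fell in hippocampal IP, and 2 rose and 2 fell in striatal IP. In striatum these shares were near those of all genes (31.8% higher and 33.1% lower), and in hippocampus 31.6% of all genes were higher and 33.7% lower. Arrb1, a beta-arrestin gene, rose by 1.53 ± 0.13 and 1.29 ± 0.13. Adrbk1, the kinase gene named for the beta receptors, fell by 0.67 ± 0.21 in hippocampus (adjusted p = 0.0101) and gave 0.22 in striatum (adjusted p = 0.378; -0.29 without the striatal inputs of mice 971 and 974). Of 4 tested dopamine receptors, 3 fell in the IP of each region and 0 rose, where 33.7% of all genes fell in hippocampus and 33.1% in striatum. Drd1a went from 36.6 ± 1.92 to 4.11 ± 1.13 scaled FPKM in striatum and Drd2 from 259 ± 68.7 to 33.0 ± 15.6, log2 fold changes of -2.91 ± 0.14 and -3.01 ± 0.30.

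The genes most like each receptor in pattern were taken as the 3 highest Pearson correlations of log2(scaled FPKM + 1) over the 16 libraries. These libraries share mice, group and depth, so r is a description. Adra1a was most like Emc7 (r = 0.982), Tmem175 (0.978) and 4933431E20Rik (0.977), and Adra2a like Gm5069 (0.969), Atf7 (0.956) and Ddr2 (0.954). Ddr2, a collagen receptor gene, measured 0.898 scaled FPKM in hippocampal input, 5.92 in hippocampal IP, 0.212 in striatal input and 1.71 in striatal IP by group means, the order that Adra2a also had. For Adra1d, 2 of its 3 were Sidt1 (0.988) and Bhlhe22 (0.986). Bhlhe22, a transcription factor gene, had means of 9.25, 1.05, 0.189 and 0.0725 scaled FPKM in the same order of groups. Adra2c was most like Zcchc12 (0.981), Kcnj4 (0.979) and Chn2 (0.978), and all 3 were highest in striatal input. The correlations of Adrb1 were lower, with Bahd1 (0.695), 2810002D19Rik (0.677) and Gas2l1 (0.673). Among the receptors themselves, Adra2a and Adra2c ran against each other most closely (r = -0.901), Adra1a and Adra2c also ran against each other (-0.800), and Adra1a and Adra2a ran together (0.737).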

How the data were processed

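RNA was sequenced from 16 libraries, input and IP of hippocampus and striatum from 4 mice. Per the labels, libraries were made from 100 ng of RNA with the NuGEN Ovation RNA-Seq System V2, a kit that does not mark strand. Per the submitters' processing notes, the tools were bcl2fastq 2.17, STAR and HTSeq and the build was mm10. The authors deposited 1 table of FPKM values per library, and how these were computed from the reads is not given in the sources used here. The labels do not state the unit, which was read from the values. Each table had 24060 labels. Dates stood in place of 27 of them, which were left out, and 2 were repeated.

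FPKM was divided by trimmed-mean factors computed here (0.734 to 1.29, after trimming log ratios by 30% and levels by 5%). Genes that reached 1 FPKM in 4 or more libraries were kept, 13449 in all. Then limma 3.58.1 (R 4.3.3) was fitted to log2(scaled FPKM + 1) over all 16 libraries and 4 groups (12 residual degrees of freedom, trended and robust variance), with Benjamini-Hochberg adjustment and calls at adjusted p under 0.05. Receptors outside the filter were tested by an exact two-sided permutation test over samples (4 against 4, 70 splits) and in a fit of all genes above 0. The fit was also run on simulated data in which some genes of striatal IP alone were changed. That run did not cover the scaling or the broad change of IP against input, and its outcome is not given here.

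Samples were grouped by their titles, whose numbers name the mouse. Same-mouse libraries deviated together between the IPs (correlation 0.31 to 0.532 across genes, after group means were removed) and less between striatal input and IP (-0.00743 to 0.0846). The mouse as a block was an alternative. Others were a pseudocount of 0.1, no filter, no scaling, leaving out each mouse, and leaving out the striatal inputs of mice 971 and 974. Depth was estimated from FPKM steps and GENCODE vM21 lengths (GRCm38/mm10), from which gene coordinates also come, and differed 5.45-fold at most. Fragment estimates were possible for 5 receptors, and those of Adra1a and Adra1b could not be placed on whole steps. Precision from depth is therefore known only as far as these estimates go.

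The receptors, the gene lists and the tests were chosen with earlier results of these data known. The genes named beside the receptors followed a written rule: listed genes always named, the gene with the smallest p in a list and comparison, and the 3 most alike in pattern. Some genes that met it are not reported here. Marker lists of 10 cell types were counted. Figures were drawn with Python 3.11.15 and matplotlib 3.10.9.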

Additional observations from a re-analysis of the deposited data

Results flagged for a closer look

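Adra1d in striatal input had 1 library far from the other 3. Mouse 971 measured 0.950 scaled FPKM (an estimated 14 fragments), against 0.106 for the next, and the gap was 0.889 of the group's range, above the 95% critical value of Dixon's test for 4 values. Adra2b in hippocampal IP had a gap of 1.0, since mouse 971 measured 0.0148 scaled FPKM (an estimated 1 fragment) and the other 3 were at 0. Of 27 gene and group pairs examined, 2 had such a gap. The test's nominal rate of about 1 in 20 assumes normally distributed values, so it does not hold for levels that rest on so few fragments. The gap is always 1.0 where 1 library has a fragment and the other 3 have none.

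The region difference in IP minus that in input passed its test for 2 receptors, each at or near 0 in 1 region. For Adra1d the difference of differences was 2.31 on the log2 scale (adjusted p = 3.17e-05 by limma), and 2.04 with a pseudocount of 0.1, which did not pass (adjusted p = 0.0976). For Adra2b it was -0.62 in the fit without the filter (adjusted p = 0.000289 by limma). These values largely repeat the change of IP against input in the other region (-2.61 for Adra1d in hippocampus and -0.63 for Adra2b in striatum).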

How the results depend on the processing

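Of the 25 receptor results from the fit, 13 passed the test, and in 117 refits they kept direction and call in 115, lost the call in 2 and reversed in 0. The other 12 kept both in 98 of 108 refits, gained a call in 6 and reversed in 4. Those reversals were Adrb1 in hippocampal IP against input without mouse 970 (0.00393) and without mouse 977 (0.155; -0.238 to 0.155 over the 4 mice left out in turn), and, for the region difference in IP minus that in input, Adra2a with a pseudocount of 0.1 (0.172) and Adrb1 without scaling (0.0268). Both calls lost were given in the report. Adra1d in striatal IP against input gained a call with a pseudocount of 0.1 (-1.26, adjusted p = 0.0469). With that pseudocount, 0 receptors passed for the difference of differences against 1. Leaving out 1 mouse at a time gave 893 to 1393 genes called between the IPs (1704 in all libraries, 893 without mouse 977, 1019 without 971, 1062 without 970), 2716 to 4331 between the inputs (4762, with 2716 without 971) and 718 to 1571 for the difference of differences (1862, with 718 without 971 and 888 without 970). Without the striatal inputs of mice 971 and 974 the IPs gave 2639. The cause of these shifts was not tested. With the mouse as a replicate block no receptor call changed. For the 48 printed values of pathway genes, whose alternatives were chosen after seeing the data, 413 of 432 refits kept direction and call, 12 lost and 2 gained a call, and 5 reversed. The reversals were Gnaq in striatum (-0.158), Gna11 in hippocampus (-0.547), Gnas in hippocampus (-0.352) and Adrbk1 in striatum (-0.00473) without scaling, and Adrbk1 in striatum without those 2 inputs (-0.289). Without scaling, the share of calls that were higher moved from 48.4% to 25.9% in hippocampal IP against input, from 49.0% to 36.1% in striatum, from 52.4% to 69.4% between the IPs and from 48.2% to 72.2% for the difference of differences. Levels of Adra2b, striatal Adra1d and Adra2a in striatal input rest on few estimated fragments, at most 50, 14 and 13 per library. Adra1b was low in all libraries, and its fragments could not be estimated. Small differences may have been missed at this depth, and the smallest detectable difference was not tested.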
